A study of Mus musculus with 6 samples.

Results

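The osteoclast and matrix resorption genes were 9 genes, Acp5, Ctsk, Mmp9, Mmp13, Oscar, Calcr, Car2, Nfatc1 and Tnfrsf11a, read at every probe set annotated to one of them alone, which gave 9 of 12393 genes and 13 of the 22626 probe sets tested. They were chosen by function and partly because Acp5 and Mmp13 varied widely between pools, so the spread of those 2 genes is given as a description. The tissue was the cochlea of mouse embryos of embryonic day 18.5, dissected with the otic capsule, the cartilage and bone shell of the inner ear, and without vestibular tissue. The tested embryos were Igf1 null (-/-, constitutive loss of insulin-like growth factor 1) and were compared with wild type (+/+) embryos from crosses of heterozygotes, all on a C57BL/6J background. Each of the 3 null and 3 wild type samples pooled RNA of 4 cochleae and was read on an Affymetrix array of its own, in 1 colour. The genotype follows the sample titles and descriptions. The source field disagrees, giving +/+ for all 3 null samples and a slightly different age for 1 wild type sample. In pooled whole tissue, fewer cells of a type and less RNA per cell cannot be told apart.

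Osteoclasts are large multinucleate cells of the monocyte lineage that dissolve bone mineral with secreted acid and digest the matrix with secreted enzymes. Their formation is driven by the cytokine RANKL, encoded by Tnfsf11, acting on its receptor RANK, encoded by Tnfrsf11a, which induces the transcription factor NFATc1. NFATc1 and its partners then switch on the genes of the resorptive phase, among them those of tartrate-resistant acid phosphatase (Acp5), cathepsin K (Ctsk), the collagen receptor OSCAR (Oscar) and the calcitonin receptor (Calcr). In growing skeletal elements calcified cartilage is also removed by the gelatinase MMP-9 (Mmp9), made by osteoclasts and their relatives and by neutrophils, and by the collagenase MMP-13 (Mmp13), made chiefly by hypertrophic chondrocytes and osteoblasts. Carbonic anhydrase II (Car2) supplies protons to the osteoclast and is also abundant in red cells, glia and fibrocytes of the cochlea.

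The promoter sequences of 3 of the 4 genes that varied together are shown, because they differ in which motifs of osteoclast and bone cell factors their letters match, if any. The 250 bases before the annotated start are printed 5′ to 3′ on the gene's own strand, from RefSeq on GRCm38.p6. Matches to an AP-1 element (TGANTCA), an M-box pattern (TCANGTG) or a RUNX element (TGTGGT) are in capitals, on either strand. The M-box pattern allows any base at N, so it is wider than the E-box forms bound by MITF. The windows lie at chr9:22130599-22130848 on the minus strand for Acp5, at chr9:7272264-7272513 on the plus strand for Mmp13 and at chr3:95498960-95499209 on the plus strand for Ctsk. For Acp5, which has 3 annotated starts, the one nearest the 3′ end of the gene is shown.
Acp5: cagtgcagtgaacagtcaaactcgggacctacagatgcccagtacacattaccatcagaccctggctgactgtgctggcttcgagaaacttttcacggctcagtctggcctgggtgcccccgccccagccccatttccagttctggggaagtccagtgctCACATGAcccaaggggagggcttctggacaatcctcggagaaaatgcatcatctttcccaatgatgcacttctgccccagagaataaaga
Mmp13: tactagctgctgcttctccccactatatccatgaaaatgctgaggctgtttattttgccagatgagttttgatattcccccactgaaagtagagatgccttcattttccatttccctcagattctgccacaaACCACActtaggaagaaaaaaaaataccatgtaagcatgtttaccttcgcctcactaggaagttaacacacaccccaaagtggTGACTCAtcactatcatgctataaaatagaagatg
Ctsk: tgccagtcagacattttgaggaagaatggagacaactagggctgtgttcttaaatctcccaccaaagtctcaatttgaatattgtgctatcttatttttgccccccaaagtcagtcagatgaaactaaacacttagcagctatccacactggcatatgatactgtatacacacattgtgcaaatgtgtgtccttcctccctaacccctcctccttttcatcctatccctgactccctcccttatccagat

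The Acp5 window held an M-box from -90 to -84 of the start. The Mmp13 window held an AP-1 element from -35 to -29 and a RUNX element from -118 to -113. The Ctsk window held none of these motifs. An AP-1 element was in 6.75%, a match to the M-box pattern in 12.2% and a RUNX element in 14% of the 32851 promoter windows of the same length. The short NFAT core GGAAA, not capitalised, was in 55.6% of them and occurred at 2 places each in the Acp5 and Mmp13 windows and at 0 in that of Ctsk. None of the 3 capitalised motifs overlapped another, and the windows of the other Acp5 starts held 0 of the 3. These matches describe letters and do not show binding. Among the windows not shown, a match to the M-box pattern lay from -39 to -33 for Oscar and from -115 to -109 for a Calcr start. Both read cacctga, where the Acp5 match reads cacatga, so they match the wide pattern and are not called MITF sites. RefSeq promoter entries covered 6 of the 9 genes. Mmp9, Car2 and Nfatc1 had none in the table.

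Levels are log2 signals after quantile normalization, and differences are null minus wild type with the standard error (SE) from limma, fitted over all probe sets. The deposited arrays were not on a common scale, and null replicate 1 stood apart with an array median of 5.61, against 6.37 and 6.21 in null replicates 2 and 3 and 6.09 to 6.30 in the wild type arrays. Across probe sets, pairs of arrays correlated at 0.939 to 0.960. A probe set was called above background in an array where it exceeded the 95th percentile of 44 probe sets of testis, oocyte, photoreceptor and exocrine pancreas genes, which ran from 4.13 to 4.67 in the null and from 4.16 to 4.67 in the wild type arrays. The tissue label was met by Coch, a cochlear matrix gene, and the cartilage collagen gene Col2a1, with means of 8.96 and 13.13 in null and 8.60 and 13.33 in wild type pools. The targeted gene, Igf1, was at 7.13, 6.92 and 7.12 in the null pools, against 7.93, 8.09 and 8.14 in the wild type pools, at its probe set with the largest difference. Its adjusted p was 0.599 in limma. At the other Igf1 probe sets the null means were 10.59 and 6.93, against 11.05 and 7.47 in the wild type pools. Signal of Igf1 was above background in every null pool at all of them.

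The 4 secreted or lysosomal enzymes of resorption, Acp5, Ctsk, Mmp9 and Mmp13, had their lowest values in null replicates 2 and 3 and high values in null replicate 1. Acp5, the phosphatase used to stain osteoclasts, was at 8.57, 5.44 and 3.40 in null replicates 1 to 3, against 8.39, 7.77 and 7.50 in wild type replicates 1 to 3. The null values spanned 5.17 log2 units and enclosed all 3 wild type values, and the lowest, in null replicate 3, was not above background. The difference was -2.09 ± 1.33 (SE), with a 95% interval from -5.43 to 1.26, because the null SD of 2.60 was large beside the wild type SD of 0.46 (n = 3 each).

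Ctsk, the collagen-degrading protease of osteoclasts, was at 9.92, 8.65 and 8.55 in the null pools, against 10.17, 9.75 and 9.70 in the wild type pools. The groups overlapped only through null replicate 1, which lay between the wild type values. The difference for Ctsk was -0.83 ± 0.41 (SE), with a 95% interval from -1.87 to 0.21, a null signal of 0.561 of the wild type level.

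Mmp9 was at 9.78, 7.55 and 6.91 in the null pools, against 8.95, 8.84 and 8.76 in the wild type pools, at its brighter probe set. Its other probe set gave 8.89, 6.39 and 6.09 in the null pools, against 8.14, 8.14 and 7.88 in the wild type pools. At both, null replicate 1 was above and null replicates 2 and 3 were below every wild type pool. The Mmp9 differences were -0.77 ± 0.76 and -0.93 ± 0.78 (SE).

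Mmp13 was at 9.18, 7.34 and 5.54 in the null pools, against 9.04, 8.41 and 8.02 in the wild type pools. Null replicate 1 was the highest of the 6 pools and null replicate 3 the lowest. The difference for Mmp13 was -1.14 ± 0.95 (SE), with a 95% interval from -3.54 to 1.27.

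**Figure D1:**
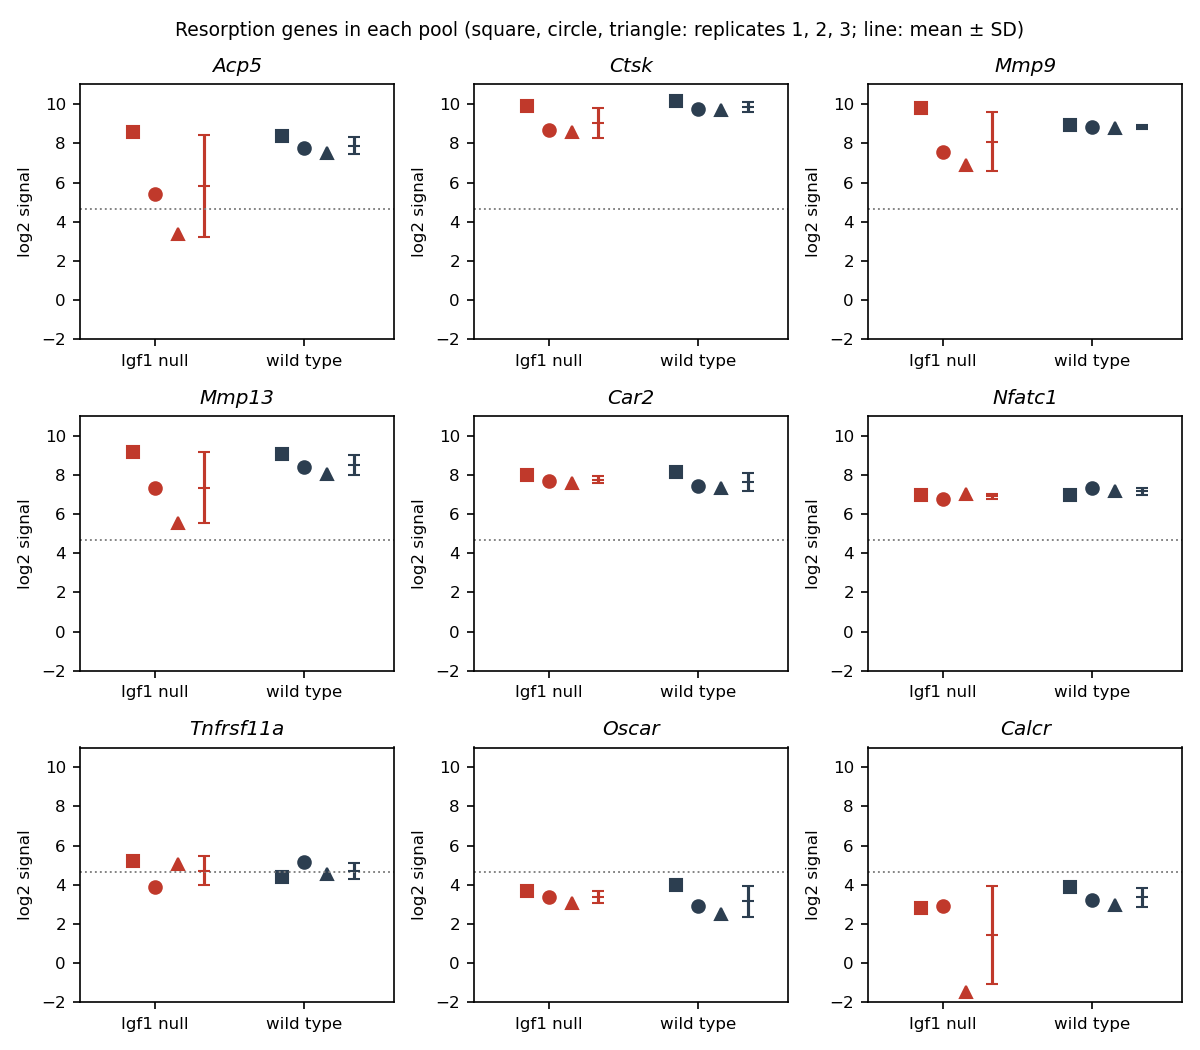
Log2 signal (vertical axis, the same range in each panel) of the 9 genes at the brightest probe set of each, in Igf1 null and wild type pools, with squares, circles and triangles for replicates 1, 2 and 3, bars for the mean ± SD (n = 3) and a dotted line at 4.67, the highest background limit of any array. Acp5, Mmp9, Mmp13 and Ctsk spread widely among the null pools, with replicate 1 high, while Car2 and Nfatc1 stayed within 0.81 and 0.58 log2 units over all pools.

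Car2 and Nfatc1 did not share this spread. Car2 was at 7.98, 7.69 and 7.60 in the null pools, against 8.14, 7.41 and 7.33 in the wild type pools. Null values of Car2 lay inside the wild type range, with a difference of 0.13 ± 0.26 (SE). Nfatc1, the factor that commits precursors to the osteoclast fate, was at 6.97, 6.75 and 7.01 in the null pools, against 6.98, 7.33 and 7.18 in the wild type pools.

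The Nfatc1 groups overlapped, and the difference was -0.26 ± 0.14 (SE). Its dimmer probe set was above background in 1 of the 6 arrays and differed by -0.73 ± 0.67. Tnfrsf11a, the RANK receptor gene, was at 5.21, 3.88 and 5.07 in the null pools, against 4.38, 5.14 and 4.55 in the wild type pools. That is close to background, with 2 of 3 arrays of each genotype above it, and the difference was 0.03 ± 0.43. The null values spanned 1.33 log2 units, near the 1.36 of Ctsk, with the lowest in null replicate 2. The other Tnfrsf11a probe set was not above background in any array.

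Oscar and Calcr were not measurable in these pools. Both Oscar probe sets and the single Calcr probe set were not above background in any of the 6 arrays. Oscar read 3.69, 3.35 and 3.09 in the null pools, against 4.01, 2.93 and 2.50 in the wild type pools, at its brighter probe set. Calcr read 2.83, 2.93 and -1.45 in the null pools, against 3.89, 3.22 and 2.95 in the wild type pools, and was the only member without overlap between the genotypes. Since both means of Calcr are below the background limit, its difference of -1.92 ± 1.28 (SE) does not show lower expression.

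With limma over all probe sets, 0 of the 13 member probe sets passed an adjusted p of 0.05, where 0% of all 22626 passed, and 0 had an unadjusted p under 0.05, where 5% of all probe sets did (2.59% lower in the null pools). Adjusted p ran from 0.982 to 0.999, and the smallest unadjusted p was 0.0955, for Ctsk. Of the 13 probe sets 9 were lower and 4 higher in the null pools, with a median difference of -0.77, against 0.0034 over all probe sets. Only 1 of 13 had groups that did not overlap, where 10.8% of all probe sets did (5.33% lower in the null pools). By exact permutation (two-sided) p was 0.4 for Acp5, 0.3 for Ctsk, 0.4 for Mmp9 at both probe sets and 0.5 for Mmp13, where 3 against 3 pools cannot go below 0.1. Without null replicate 1 the differences were -3.47 for Acp5, -1.27 for Ctsk, -1.61 and -1.81 for Mmp9 and -2.05 for Mmp13. Null replicate 1 holds the high values that run against these differences. Without null replicate 3 they were -0.89 for Acp5, -0.59 for Ctsk, -0.18 and -0.41 for Mmp9 and -0.23 for Mmp13, with 0 of 13 at an unadjusted p under 0.05. In the fit without null replicate 1 these 5 of the 13 had an unadjusted p under 0.05, all lower in the null pools, where 5.06% of all probe sets did (2.89% lower), and 0 of 13 passed the adjusted threshold (smallest adjusted p 0.456, for Mmp9). Without both arrays of title number 14 (a number in the sample titles, described further on), 6 of 13 had an unadjusted p under 0.05 in limma, where 5.27% of all probe sets did (2.64% lower), and again 0 passed the adjusted threshold. Those 6 were Acp5, Ctsk, both Mmp9 probe sets and the dimmer probe sets of Oscar and Nfatc1, and did not include Mmp13 (unadjusted p = 0.086 in limma). Neither Oscar probe set was above background in any array.

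**Figure D2:**
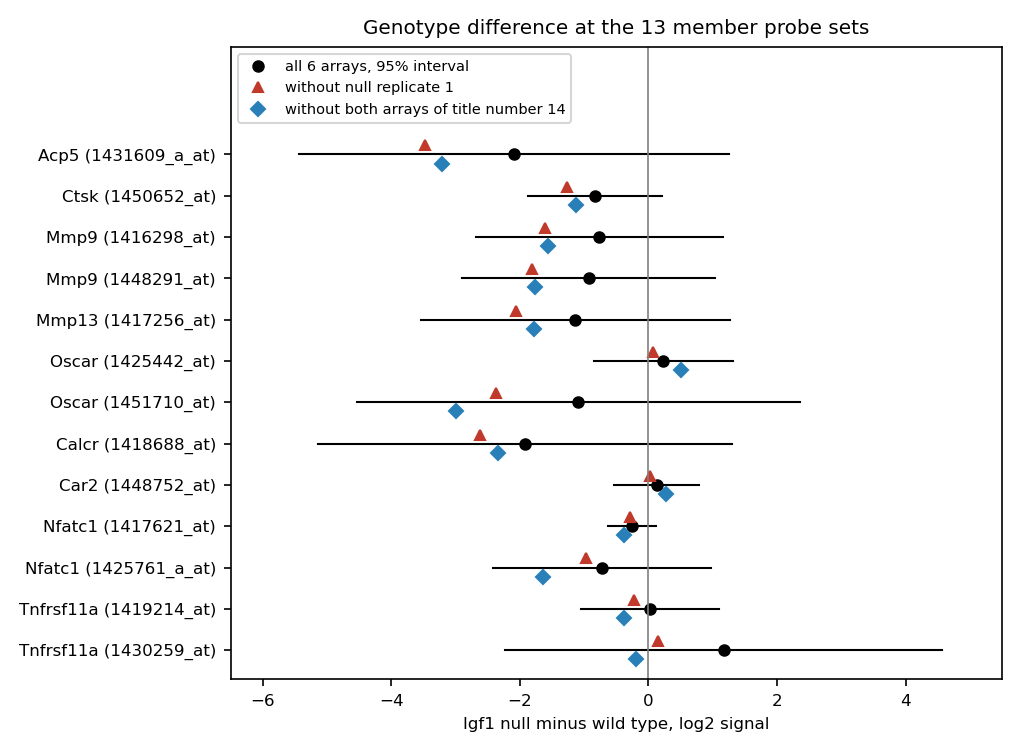
Difference in log2 signal, Igf1 null minus wild type (horizontal axis), at the 13 member probe sets (vertical axis), as black points with 95% intervals from limma over all 6 arrays, red triangles without null replicate 1 and blue diamonds without both arrays of title number 14. All 13 black intervals include 0, and the 5 probe sets of Acp5, Ctsk, Mmp9 and Mmp13 lie further below 0 in the fits without null replicate 1.

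The sample titles carry a number, 14 for replicate 1 and 16 for replicates 2 and 3 of each genotype, whose meaning the labels do not give. Within number 16 the enzymes were lower in both null pools than in both wild type pools. Mean differences there were -3.22 for Acp5, -1.12 for Ctsk, -1.56 and -1.77 for Mmp9 and -1.78 for Mmp13, and wild type signal was 2.18 times that of the null pools for Ctsk and 3.43 times for Mmp13. No fold is given for Acp5, whose value in null replicate 3 was not above background. Of the 13 member probe sets, 9 were lower in the null pools without overlap within number 16, where 16.7% of all probe sets were, and these 9 include the below-background Calcr and 1 Oscar probe set. The mean difference within number 16 was 0.27 for Car2 and 0.51 for the brighter Oscar probe set, which was not above background in any array.

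Within number 14, which holds 1 array of each genotype, the null value was lower at 5 of 13 member probe sets, where 50.9% of all probe sets were lower. Null minus wild type was 0.18 for Acp5, -0.25 for Ctsk, 0.83 and 0.75 for Mmp9 and 0.14 for Mmp13. On the values as deposited, where null replicate 1 was the dimmest array, these were -0.45 for Acp5, -0.81 for Ctsk, 0.24 and 0.13 for Mmp9 and -0.47 for Mmp13, so the direction within number 14 depends on the scaling for Acp5 and Mmp13. The change in genotype difference between the title numbers, tested as an interaction in limma, had an adjusted p of 0.610 and 0.668 for the Mmp9 probe sets, 0.806 for Ctsk, 0.936 for Acp5 and 0.981 for Mmp13. That test was added after the pattern had been seen, and it assumes that the single number 14 array of each genotype varies like those of number 16. No probe set on the array passed that test at an adjusted p of 0.05, and the smallest unadjusted p was 1.2e-04.

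Over the 6 pools Acp5, Ctsk, Mmp9 and Mmp13 ranked the pools almost identically. Acp5 and Mmp13 correlated at r = 0.984 (Pearson) and rho = 1 (Spearman), with an exact permutation p of 0.0014 and 0.0028 (n = 6 pools, two-sided). Acp5 and Mmp9 had r = 0.965 and rho = 1, with the same exact permutation p of 0.0014 and 0.0028. Acp5 and Ctsk had r = 0.951 and rho = 0.943, with an exact permutation p of 0.0042 and 0.0167. Mmp13 had r = 0.943 and rho = 1 with Mmp9, and r = 0.905 and rho = 0.943 with Ctsk. The Pearson p adjusted by Benjamini-Hochberg over the 15 relations computed (exact permutation tests) was 0.0069 for the pairs of Acp5 or Mmp13 with Mmp9 and with each other, and 0.0125 for those with Ctsk. The Spearman p adjusted likewise was 0.0139 and 0.05. On the values as deposited it was 0.0833 for the Mmp9 pairs (rho = 0.943) and 0.175 for the Ctsk pairs (rho = 0.829), so these rank calls depend on the scaling. All 15 relations involve Acp5 or Mmp13, chosen partly for their spread over these same pools. The permutations also treat null and wild type pools as exchangeable. The p-values are therefore a description of the 6 pools.

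The relation of Acp5 with Mmp13 did not rest on the 2 pools lowest in Acp5. Without null replicates 2 and 3, the pools farthest from the median of Acp5, r was 0.996 for Mmp13, 0.787 for Ctsk and 0.785 for Mmp9 over the 4 others. With the genotype means removed, r of Acp5 was 0.988 with Mmp13, 0.976 with Mmp9 and 0.935 with Ctsk. For the other members it was 0.794 with Calcr, 0.545 with Car2, 0.515 with Oscar, 0.155 with Tnfrsf11a and -0.120 with Nfatc1. Within the null and the wild type pools alone, r of Acp5 was 0.983 and 0.979 with Car2, against 0.944 and 0.979 with Ctsk. It was 0.220 and -0.428 with Tnfrsf11a, and -0.032 and -0.739 with Nfatc1. For Mmp13 the farthest pools were null replicates 1 and 3, without which r was 0.946 with Ctsk and 0.870 with Mmp9. All 6 pairs among these 4 genes had r between 0.905 and 0.984. Acp5 and Mmp13 were chosen for wide variation between pools, and the 4 genes were measured on the same arrays, so these values describe the 6 pools.

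**Figure D3:**
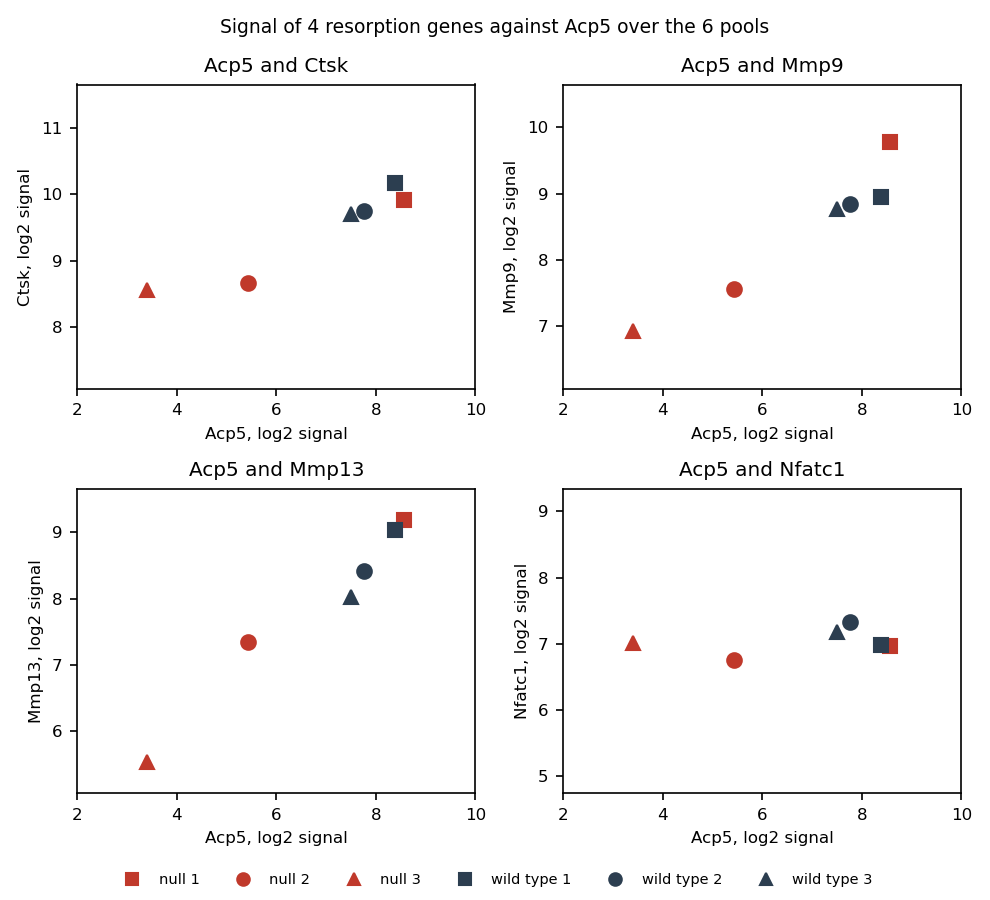
Log2 signal of Ctsk, Mmp9, Mmp13 and Nfatc1 (vertical axes, 4.6 log2 units each) against that of Acp5 (horizontal axes) in the 6 pools, red for Igf1 null and dark blue for wild type, with squares, circles and triangles for replicates 1, 2 and 3. The first 3 genes climb with Acp5 (r = 0.951, 0.965 and 0.984), with null replicate 1 beside the wild type pools, and Nfatc1 stays flat (r = 0.329).

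Over all 6 pools the other 5 members had lower correlations with Acp5 than the enzymes had. With Acp5, Car2 had r = 0.313 and rho = 0.486, Nfatc1 r = 0.329 and rho = -0.086, Tnfrsf11a r = 0.112 and rho = 0.429, and Oscar r = 0.282 and rho = 0.486. Their Pearson exact permutation p ran from 0.504 for Nfatc1 to 0.782 for Tnfrsf11a. Calcr, below background, had r = 0.857 and rho = 0.429 with Acp5, with an adjusted exact permutation p of 0.0952 for r. Its r rested on single pools, at 0.369 without null replicate 3 and 0.898 without null replicate 1, where the adjusted exact permutation p was 0.0179. Without null replicates 2 and 3, r with Acp5 was 0.943 for both Car2 and Oscar over the 4 remaining pools, above the values for Ctsk and Mmp9 there. In null replicates 2 and 3, where Acp5 was lowest, Car2 was above wild type replicates 2 and 3, and Oscar was not above background in any pool.

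Acp5 and Mmp13 were chosen partly for wide variation between pools, so their high rank in spread is a description and not a result. The SD of log2 signal over the 6 pools was 2.02 for Acp5, 1.35 for Mmp13, 1.04 for Mmp9 and 0.68 for Ctsk, above 99.8%, 99.8%, 99.8% and 99% of the 500 probe sets nearest in mean level. Car2 had 0.32 (above 93.8%), Nfatc1 0.20 (above 62.2%) and Tnfrsf11a 0.52 (above 73.8%). Most of the spread was among the null pools, where the SD was 2.60 for Acp5, 1.82 for Mmp13, 1.50 for Mmp9 and 0.76 for Ctsk, against 0.46, 0.52, 0.094 and 0.26 in wild type pools (n = 3 each). The difference in SD was not tested.

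Among the other 6195 genes above the median level, 59 had r above 0.9 with Acp5 over the 6 pools, 0.952% of them. The 5 highest were Bcap29 (0.993), an adaptor protein gene of the endoplasmic reticulum, Phex (0.985), an osteoblast and osteocyte endopeptidase gene, Mmp13 (0.984), Ubr3 (0.982), a ubiquitin ligase gene, and Timp1 (0.981), an inhibitor gene of metalloproteinases. With Mmp13 they were Dpm1 (0.986), Mtx2 (0.984), Acp5 (0.984), Bcap29 (0.983) and Timp1 (0.981). The likeness is in rank and shape. Timp1 was at 8.23, 7.85 and 7.64 in the null pools, against 8.23, 8.16 and 8.01 in the wild type pools, a far smaller range than that of Acp5.

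Genes upstream of resorption are given as values, since 0 of all 12393 genes passed the test (0%). Of 32 measured genes of osteoclast regulation and machinery, 0 passed an adjusted p of 0.05 in either direction in limma, 17 were lower and 15 higher, and the median difference was -0.052, against 0.0056 over all genes. That median turned to 0.017 without wild type replicate 1, 0.010 without null replicate 3 and 0.0079 with a pseudocount of 32. Those of smallest p were Csf1, the macrophage growth factor (-0.37 ± 0.15 SE), Fosl1, not above background, and the RANK adaptor gene Traf6 (0.16 ± 0.10). Of 27 genes of the RANKL to NFATc1 pathway, 0 passed, and the median was -0.061, with 19 lower and 8 higher and the smallest p for the kinase gene Tec (-0.36 ± 0.14).

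Tnfsf11, the RANKL gene, was not above background in any array, nor was Ocstamp, a gene of osteoclast fusion, or Itgb3, the beta chain of the osteoclast adhesion receptor. Tnfrsf11b, which encodes the RANKL decoy osteoprotegerin, was at 4.45, 4.27 and 5.13 in the null pools, against 5.09, 4.38 and 5.48 in the wild type pools. Its value in null replicate 1 was not above background. Tcirg1, a proton pump subunit gene of the osteoclast, was at 7.66, 7.35 and 7.45 in the null pools, against 7.55, 7.26 and 7.28 in the wild type pools. Its groups overlapped and did not show the low values of null replicates 2 and 3 seen for Acp5. Tyrobp, of the same list, was at 8.73, 7.90 and 7.79 in the null pools, against 8.29, 8.06 and 8.05 in the wild type pools, lowest in null replicates 2 and 3.

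The other proteases were read against the same background of 0 calls on the array. Of 22 metalloproteinase and inhibitor genes, 0 passed, and the median difference was -0.12, with 14 lower and 8 higher, among them the aggrecanase-type gene Adamts1 (-0.34 ± 0.12 SE). Mmp14, the membrane collagenase, was at 10.09, 10.05 and 10.33 in the null pools, against 10.19, 10.45 and 10.57 in the wild type pools. Of 17 cathepsin and lysosome genes 0 passed, and 11 were lower against 6 higher. Their median was -0.055, and 0.015 where arrays were centred on their medians instead. Ctsl, the cathepsin L gene, had the smallest p (-0.36 ± 0.10, adjusted p = 0.889 in limma), and Ctsc, an activator of granule proteases, was at 6.51, 5.94 and 4.31 in the null pools, against 7.31, 6.62 and 6.67 in the wild type pools. The value of Ctsc in null replicate 3 was not above background.

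Markers of cells that share these enzymes were read pool by pool. Macrophage and monocyte markers, 20 of 20 measured and 16 above background in every array, had a summed level of 11.67, 11.42 and 11.44 in the null pools, against 11.64, 11.57 and 11.56 in the wild type pools, with Itgam not above background. Null replicates 2 and 3 were the lowest and null replicate 1 the highest, over a range far narrower than that of the enzymes. By mean difference 9 of the 20 were lower and 11 higher in the null pools, and 0 passed the test. Mrc1, of smallest p in this list, was at 7.95, 7.73 and 7.97 in the null pools, against 8.29, 8.24 and 8.13 in the wild type pools (adjusted p = 0.973 in limma). Csf1r, the receptor that marks the whole lineage, was at 9.77, 9.41 and 9.56 in the null pools, against 9.89, 9.73 and 9.76 in the wild type pools. The complement gene C1qb was at 8.48, 8.36 and 8.13 in the null pools, against 7.94, 8.22 and 8.28 in the wild type pools. It had a higher null mean and no low value in null replicate 2. Cd68, a lysosomal protein gene of macrophages and osteoclasts, was at 7.05, 5.70 and 5.93 in the null pools, against 6.52, 6.59 and 6.52 in the wild type pools, low in the same 2 pools as Acp5. It was picked after its values were seen. The part of macrophages in the values of the 4 enzymes was not tested.

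Neutrophil markers, 13 of 15 measured and 5 above background in every array, summed to 10.04, 8.86 and 9.32 in null replicates 1 to 3, against 9.20, 8.80 and 9.10 in the wild type replicates. Mpo, Elane, Prtn3, Ctsg and Cxcr2 were not above background in any array. S100a8, an abundant neutrophil gene, was highest in null replicate 1, at 8.65, 7.33 and 7.83 in the null pools, against 7.37, 7.13 and 7.49 in the wild type pools. Mmp9 too was highest in null replicate 1, and the part of neutrophils in that value was not tested.

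Markers of hypertrophic cartilage, 9 of 14 measured and 7 above background in every array, summed to 12.22, 11.72 and 10.90 in the null pools, against 11.63, 11.76 and 11.72 in the wild type pools. All 9 were lower on average in the null pools, with a median of -0.19. That median was -0.0045 without null replicate 3 and -0.54 without null replicate 1. Col10a1, the collagen of hypertrophic chondrocytes, was at 8.48, 7.98 and -0.92 in the null pools, against 6.79, 7.69 and 7.56 in the wild type pools. It was not above background in null replicate 3, the pool with the lowest Mmp13. Ibsp, a bone matrix protein gene, was at 11.20, 10.25 and 8.81 in the null pools, against 10.30, 10.22 and 10.04 in the wild type pools, so it too was highest in null replicate 1 and lowest in null replicate 3.

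Osteoblast and bone markers, 13 of 18 measured and 10 above background in every array, summed to 14.68, 14.58 and 14.52 in the null pools, against 14.69, 14.90 and 14.89 in the wild type pools, with Mepe not above background. Dmp1, an osteocyte matrix gene, was lower in every null pool, at 5.38, 4.51 and 4.01, against 6.01, 6.28 and 6.18 in the wild type pools. Its value in null replicate 3 was not above background. The part of these cell types in the values of the 4 enzymes was not tested.

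A sign of RNA quality moved with the enzymes. For Actb, the 3′ control probe set exceeded the 5′ one on the log2 scale by 0.75, 0.95 and 1.12 in null replicates 1 to 3, against 0.73, 0.65 and 0.80 in wild type replicates 1 to 3. For Gapdh the excess was 0.18, 0.36 and 0.43 in the null replicates, against 0.21, 0.30 and 0.25 in the wild type replicates. In both genes null replicates 2 and 3, the pools lowest in Acp5, Ctsk, Mmp9 and Mmp13, were the highest of the 6. Its part in the values of these genes was not tested.

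**Figure D4:**
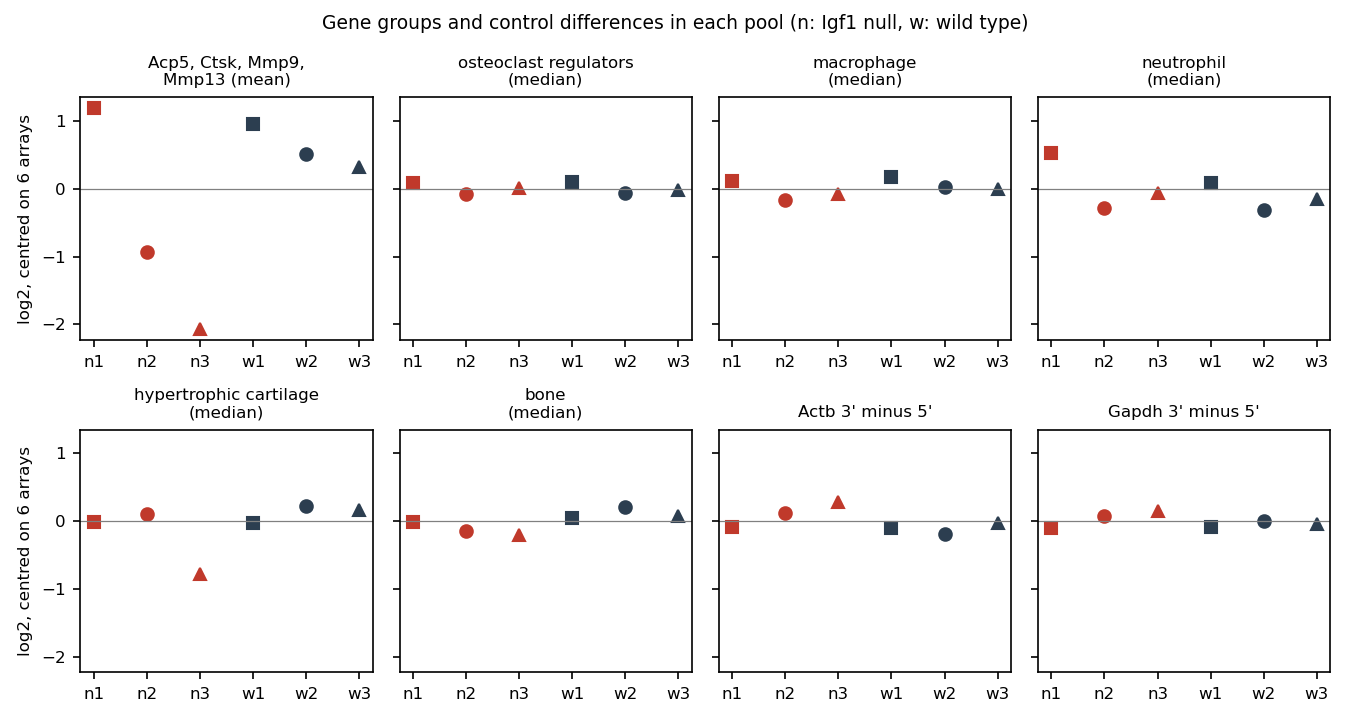
Log2 values centred on the mean of the 6 arrays (vertical axes, shared) in null replicates 1 to 3 (n1 to n3, red) and wild type replicates 1 to 3 (w1 to w3, dark blue), for the mean of Acp5, Ctsk, Mmp9 and Mmp13, the median gene of 5 lists, and the 3′ minus 5′ difference of Actb and Gapdh. The enzyme mean was 1.19, -0.93 and -2.07 in the null pools, against 0.97, 0.52 and 0.32 in the wild type pools, while the macrophage median was 0.12, -0.16 and -0.074 in the null pools, against 0.17, 0.027 and 0.0058 in the wild type pools, also lowest in null replicates 2 and 3.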

How the data were processed

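The authors deposited log2 signals of 22690 probe sets on each array. Base 2 was taken from the values' range, since no label states it, and the summarisation method is not given in the sources used here. Per the labels' protocols, biotinylated cRNA was hybridised to 1 Affymetrix array per pool. The arrays were quantile normalized here, 64 controls were dropped, and a model with genotype as its only term was fitted with limma 3.58.1 (lmFit, then eBayes, under R 4.3.3), its two-sided p adjusted by Benjamini-Hochberg over 22626 probe sets. The same fit was also run on simulated data with known differences. The platform annotation gave 1 gene for 20380 of these probe sets, and its Entrez identifiers were matched to RefSeq (GRCm38.p6) for current symbols, with 29 unmatched. For gene lists, the probe set with the highest mean stood for a gene. A list's summed level is log2 of the sum of its genes' linear signals. Single values were tested by exact permutation of the 6 arrays. P-values measure the spread between pools. The alternatives were other scalings, pseudocounts, filters, blocks, array weights and arrays left out, and the genotype by title number interaction was added after seeing the data.

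Members and lists were chosen with earlier results of these data known. The rule for naming genes covered all members, Igf1, the genes of smallest p and the brightest markers of the lists, and the 5 genes most like Acp5 and Mmp13 over the pools. Not every gene of smallest p or brightest marker of a list is printed here. Tnfsf11, Tnfrsf11b, Tcirg1, Tyrobp, Ocstamp, Itgb3, Cd68, Col10a1 and genes not above background were chosen after their values were seen. Precision is limited by the small number of arrays.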

Additional observations from a re-analysis of the deposited data

How the results depend on the processing

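No alternative brought a member probe set past an adjusted p of 0.05 in limma. The count at an unadjusted p under 0.05, 0 of 13, was 1 on the values as deposited, 1 of the 7 left by a filter at the 40th percentile of level, 1 with the title number as a block and 1, Ctsk, with the replicate number as a block (replicate block), 0 to 5 with single arrays left out (5 without null replicate 1) and 6 without both arrays of title number 14. Deviations of same-numbered null and wild type pools correlated at 0.040, 0.10 and 0.021, and those of differently numbered pools at -0.067 to 0.033. All were small, so the numbers were not taken to pair the samples. The median over the member probe sets, -0.77, ran from -1.27 to -0.23 with single arrays left out and was -1.56 without title number 14. The median over the member genes was -0.21 with a pseudocount of 32 and ran from -1.27 to -0.23 with single arrays left out. All 5 probe sets of Acp5, Ctsk, Mmp9 and Mmp13 kept a negative difference under all 15 alternatives, from -3.47 to -0.18.

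Directions turned for members with differences near 0 or below background. Tnfrsf11a at its brighter probe set was -0.20 on the deposited values, -0.025 with median centring, -0.18 with array weights and -0.37 without title number 14, and from -0.22 to 0.44 with single arrays left out; its dimmer probe set was -0.19 without title number 14. Oscar was -0.082 and Car2 -0.012 on the deposited values, and with single arrays left out they ran from -0.094 to 0.66 and from -0.020 to 0.38. On the deposited values r of Acp5 was -7.5e-04 with Car2, -0.060 with Nfatc1 and -0.067 with Tnfrsf11a, and that of Mmp13 was -0.088 with Nfatc1 and -0.16 with Tnfrsf11a. With single arrays left out, r with Tnfrsf11a ran from -0.25 to 0.75 for Acp5 and from -0.24 to 0.67 for Mmp13. The adjusted p of Ctsk with Acp5 and Mmp13 reached 0.075 and 0.1 with 5 arrays (exact permutation), where fewer orders exist and r was 0.983 and 0.901. On the deposited values the median of all probe sets was itself -0.15, so differences there are to be read relative to it. The causes were not tested.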

Other observations

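Red cell markers, of interest because red cells also make Car2, summed to 9.41, 9.19 and 8.96 in the null pools, against 9.65, 9.73 and 9.46 in the wild type pools, so that every null pool was lower. Of the 13 measured, 0 passed an adjusted p of 0.05 in limma, 9 were lower and 4 higher in the null pools, and 6 were not above background in any array. Slc4a1, of smallest p, was at 3.47, 3.60 and 3.23 in the null pools, against 5.16, 5.47 and 4.97 in the wild type pools (adjusted p = 0.454 in limma). It was not above background in any null pool. Car2 itself was at 7.98, 7.69 and 7.60 in the null pools, against 8.14, 7.41 and 7.33 in the wild type pools. Myelinating glia and spiral ligament markers, the other possible sources of Car2 in the dissection, summed to 13.13, 13.03 and 12.76 in the null pools, against 12.99, 12.80 and 12.97 in the wild type pools. The part of red cells, glia and ligament cells in the values of Car2 was not tested.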
